A study of Mus musculus with 12 samples.

Results

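Peaks of DNA methylation (5mC) and hydroxymethylation (5hmC) were examined across the neurogenic lineage of the mouse cortex at E14.5. The peaks lay near genes expressed much more in progenitors than in neurons, here called silenced or turned off in neurons. The peaks were chosen by the expression of their nearest gene: an expression score of at least 500 in proliferating progenitors (PP), at least 6 times the score in neurons, and a score in differentiating progenitors (DP) under 2 times that in PP. This selection kept 2343 of 55085 5mC peaks (4.25%) next to 530 genes and 2156 of 47478 5hmC peaks (4.54%) next to 501 genes. Together these were 600 genes, of which 431 had peaks of both marks, 99 had only 5mC peaks and 70 had only 5hmC peaks. The expression scores came from an earlier RNA-seq study of the same cell types, so the levels of the marks played no part in the selection.

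Cells were sorted from embryos that carried 2 fluorescent reporters, RFP at Btg2 and GFP at Tubb3, with no other treatment. PP lacked both reporters (Btg2-/Tubb3-), DP carried RFP without GFP, and GFP marked the neurons (N). The series holds 12 samples, with an immunoprecipitated and an input library per mark for PP, DP and neurons. Sheared DNA of the cell types was barcoded and mixed before the antibody pull-down ((h)MeDIP), so the immunoprecipitated libraries of a mark shared pull-downs across cell types. The input libraries had no antibody, and the levels average biological replicates. PP are defined by the absence of both reporters, and any cell of the tissue without them falls into that gate.

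5mC is set by DNA methyltransferases and at many regulatory regions accompanies a silent state. 5hmC is made from 5mC by TET enzymes, is an intermediate of active demethylation, and is abundant in neurons. PP include the radial glia that divide at the ventricle, and DP include the progenitors that produce neurons at their last division. As cells leave the cycle, genes of replication and mitosis, of radial glial identity and of the pathways that hold progenitors in the cycle are turned off.

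The scores that chose the genes had a median of 2399.6 in PP and of 1753 in DP, and of 122.45 in neurons. In neurons they ranged from 1.4 to 7540.1, the latter at Vim, so a gene called silenced can still be expressed there. The ratio of PP over neurons ranged from 6.01 to 413, with a median of 17.7, and the ratio of DP over PP had a median of 0.66. In DP the score was under 0.5 of that in PP at 169 genes, from 0.5 to 1 of it at 303 genes, and at or above it at 128 genes. Just inside the expression minimum was Ppp1r3c with 501.1 in PP, and just outside was 2810442I21Rik with 496.3. Just inside the ratio was Fam181b with 6.01, and just outside was AI464131 with 5.97. Nearest to the limit in DP was Cav1 with 1.90 times its score in PP, and just outside was Neurog2, a neurogenic transcription factor, with 2.06 times.

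The labels of the cell types were compared with lists of marker genes. The scores of 33 radial glia genes with a peak summed to 539707 in PP, 315291 in DP and 139267 in N, and 23 of the 33 were members. The 59 cell cycle genes with a peak summed to 470681 in PP, 457735 in DP and 54863 in N, and 52 were members. The 12 genes of intermediate progenitors with a peak summed to 63732, 194174 and 44419, and the 18 neuronal genes to 29751, 151895 and 584182, with no member in either list. Of other cell types, the 21 endothelial genes summed to 9975 in PP and 5469 in neurons, the 13 microglial genes to 876.5 and 287.5, and the 18 mural, meningeal and fibroblast genes to 24950 and 6429. The 3 erythroid genes summed to 5397 and 3441, and the 6 genes of oligodendrocyte precursors to 1450 and 522. Single high genes carried much of these sums, such as Slc2a1 (3973 in PP, 1297 in N), Fn1 (15515, 5024) and Tfrc (5184, 3400). A PP score of at least 6 times that in neurons was held by 9 endothelial, 8 microglial and 14 mural, meningeal and fibroblast genes. The same held for 1 erythroid gene and 4 genes of oligodendrocyte precursors. No listed marker with a peak had a score of 0 in PP. Only the mural, meningeal and fibroblast list contained members, which were Pdgfrb, Col4a1 and Nid1, and their 14 5mC and 7 5hmC peaks are part of every count below.

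Few of the member peaks, as of all peaks, lay at a start site. Inside the nearest gene were 50.3% of the member 5mC peaks, against 40.2% of all 5mC peaks, and 47.0% of the member 5hmC peaks, against 36.2%. The median distance to the start site was 23400 bp for 5mC and 30640 bp for 5hmC, against 20385 and 27216 bp over all peaks. Within 2000 bp lay 79 5mC peaks (3.37%) and 98 5hmC peaks (4.55%), against 6.14 and 6.62% of all peaks. Peaks were short, with median widths of 143 bp for 5mC and 165 bp for 5hmC. A gene had a median of 3 peaks of each mark, and the most were 34 for 5mC and 33 for 5hmC.

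Of the member peaks, 9 of 5mC and 13 of 5hmC touched a promoter window of RefSeq, which spans 250 bases before to 50 bases after a gene's start. The following 5 stretches were chosen, after their values were seen, from the peaks that the window covers whole. Also covered whole, but not shown, were 5mC peaks of Elk3, Mbnl3 and Sgol2 and a 5hmC peak of Slc6a11. The Slc6a11 peak holds 0 CpGs in 193 bases and read 5.01 in PP, 4.55 in DP and 4.34 in N. The 5 stretches are from GRCm38.p6 (the build called mm10), 5′ to 3′ on the strand of the gene that owns the window, with each CpG, the site of both marks, in capitals.
Sgol2 5hmC peak, chr1:57985223-57985371, + strand: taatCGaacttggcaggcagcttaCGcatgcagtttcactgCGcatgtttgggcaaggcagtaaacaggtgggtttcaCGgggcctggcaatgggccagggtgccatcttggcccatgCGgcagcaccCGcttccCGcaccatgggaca
Wipi1 5mC peak, chr11:109578309-109578437, + strand: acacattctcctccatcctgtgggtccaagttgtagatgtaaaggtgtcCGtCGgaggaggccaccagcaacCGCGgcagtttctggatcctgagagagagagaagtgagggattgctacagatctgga
Ednrb 5hmC peak, chr14:104007116-104007254, + strand: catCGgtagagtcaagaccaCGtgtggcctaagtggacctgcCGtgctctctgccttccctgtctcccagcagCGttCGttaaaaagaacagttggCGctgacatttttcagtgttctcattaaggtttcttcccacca
Myo10 5hmC peak, chr15:25622361-25622520, + strand: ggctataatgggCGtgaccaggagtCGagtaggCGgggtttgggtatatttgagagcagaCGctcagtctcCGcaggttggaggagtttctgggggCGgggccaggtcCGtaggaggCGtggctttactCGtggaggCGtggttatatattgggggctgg
Grb10 5mC peak, chr11:12028038-12028154, - strand: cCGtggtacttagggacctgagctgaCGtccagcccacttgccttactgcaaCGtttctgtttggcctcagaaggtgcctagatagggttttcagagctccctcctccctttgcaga

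The Sgol2 and Wipi1 stretches carried both marks. Sgol2 (Sgo2a in RefSeq) encodes a shugoshin that protects cohesion at centromeres, and its 149 bases hold 7 CpGs. The mean log2 level of 5hmC there was 3.81 in PP, 4.48 in DP and 5.59 in N, while the overlapping 5mC peak read 5.36, 4.95 and 4.90. At the Wipi1 stretch, which holds 4 CpGs inside a gene of autophagy and at the start of the uncharacterized gene Gm39442, 5mC read 5.96, 5.95 and 5.33 and the overlapping 5hmC peak 2.07, 3.94 and 4.44. Both stretches had their highest 5hmC in neurons. The centred 5mC change from DP to neurons was 0.12 at Sgol2 and -0.44 at Wipi1, so after centring 5mC was lowest in DP at Sgol2 and in neurons at Wipi1. The Ednrb peak, with 6 CpGs, lies 163 kb upstream of the start of this endothelin receptor and at the start of Gm41238, and its 5hmC was 2.98, 4.13 and 4.28. The Myo10 peak is at the gene's own start, holds 10 CpGs and went the other way, with 5hmC of 4.84 in PP, 4.62 in DP and 4.35 in N. Grb10, an imprinted adaptor of growth factor receptors, kept a high 5mC level at a start inside the gene, with 6.52, 6.71 and 6.87.

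Levels are the authors' means per cell type on a log2 scale, and the tables give no value per replicate, so none of the following differences could be tested. A change is the later minus the earlier mean log2 level, from which the median difference over all peaks of the mark was subtracted. That median was -0.17 for 5mC from PP to neurons, -0.18 from DP to neurons, and between -0.08 and 0.00 for the other 4 comparisons. A peak is called lost or gained where its change reached 1.5-fold, and the calls carry no p-value. Shares are given with exact 95% binomial intervals, which cover counting error over peaks only and treat the peaks of a gene as independent. The study states a range of reads per sample, but the depth of each library is not given with the levels. A mark on fewer cells cannot be told apart from less of it per cell.

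5mC near progenitor genes silenced in neurons was close to that of the whole set of peaks. From PP to DP, 4.69% of the member peaks lost 5mC (110 peaks, interval 3.87 to 5.63%), against 5.44% of all peaks, and 5.12% gained it (120 peaks), against 4.6%. From DP to neurons, 8.19% lost 5mC (192 peaks), against 9.36%, and 5.16% gained it (121 peaks), against 5.12%. Over both steps, from PP to neurons, 9.22% lost 5mC (216 peaks, interval 8.08 to 10.5%), against 10.2%, and 5.89% gained it (138 peaks, interval 4.97 to 6.92%), against 5%. The median change was 0.02, 0.01 and 0.02 for the 3 comparisons. The members thus had slightly fewer losses and slightly more gains of 5mC than all peaks in each comparison. The shares of all peaks lay within the intervals of the members, and a shift towards more 5mC was not tested. The peaks near 634 neuron-induced genes, chosen by the mirrored rule of at least 500 in neurons and at least 6 times the score in PP, read differently, with 17.7% lost and 3.93% gained from PP to neurons and a median change of -0.10. Near 3553 genes expressed alike in PP and neurons (within 1.5-fold), 8.66% were lost and 5.20% gained.

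5hmC was also close to the whole set, with somewhat lower shares of gains. From PP to DP, 10.3% of the member peaks gained 5hmC (222 peaks), against 11.2% of all peaks, and 4.36% lost it (94 peaks), against 4.68%. From DP to neurons, 14.8% gained 5hmC (319 peaks, interval 13.3 to 16.4%), against 16.5%, and 7.37% lost it (159 peaks), against 7.07%. The interval of this gain lies just below the share of all peaks. From PP to neurons, 21.3% gained 5hmC (459 peaks, interval 19.6 to 23.1%), against 22.1%, and 8.07% lost it (174 peaks, interval 6.96 to 9.30%), against 7.71%. The median change was -0.01, 0.02 and 0.01. Gains thus outnumbered losses near genes that are turned off, as they did over all peaks. Near neuron-induced genes 27.1% gained and 7.21% lost 5hmC from PP to neurons, and near steadily expressed genes 21.3% gained and 8.04% lost it.

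**Figure D1:**
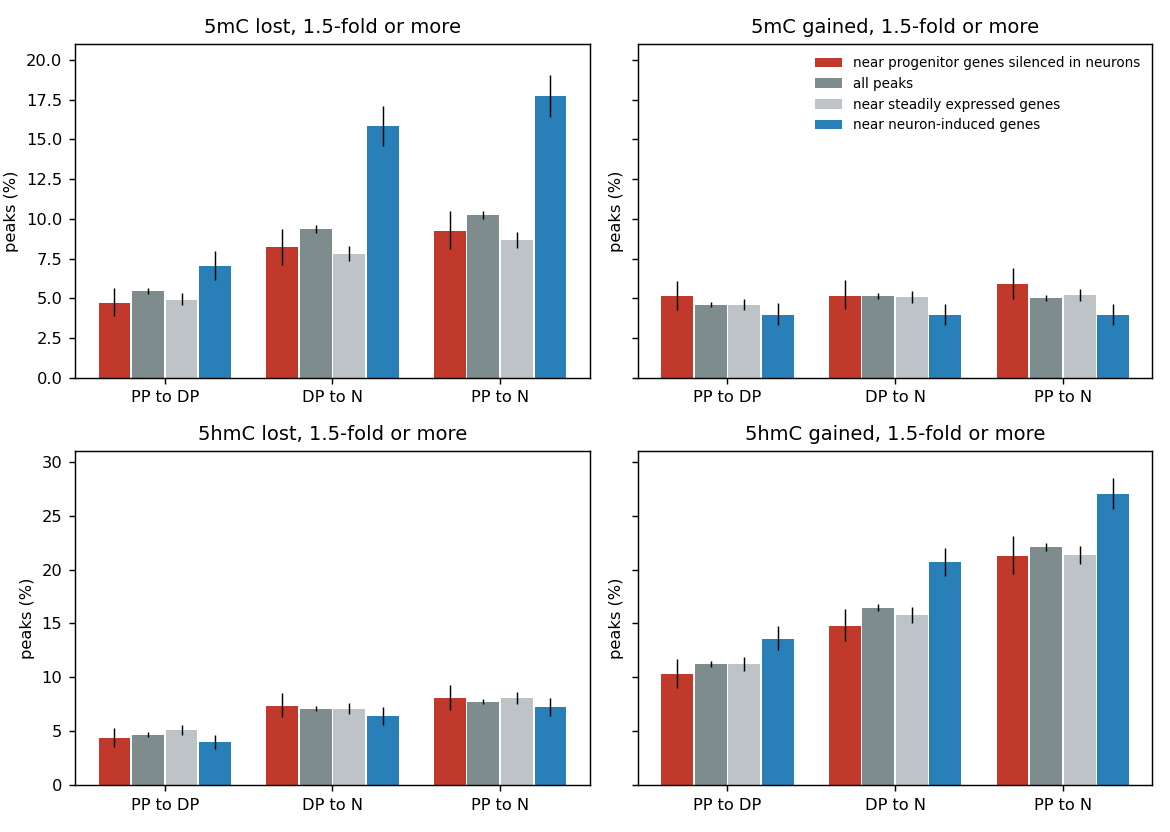
Share of peaks (%) that lost (left) or gained (right) at least 1.5-fold of 5mC (top) or 5hmC (bottom) from PP to DP, DP to N and PP to N, for 4 sets of peaks; lines are exact 95% binomial intervals over peaks. The red bars of the members stand close to the grey bars of all peaks, and the blue bars of neuron-induced genes stand apart for 5mC lost (17.7% from PP to N) and 5hmC gained (27.1%).

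The whole distributions of the members and of all peaks lay close to each other as well, as the histogram of changes from PP to neurons shows. For 5mC the lower tail of the members held fewer peaks than that of the neuron-induced genes, and at a minimum of 2-fold 3.46% of the member peaks were lost, against 4.00% of all peaks and 7.99% near neuron-induced genes. For 5hmC a gain of at least 2-fold was seen at 12.8% of the member peaks, 14.2% of all peaks and 18.6% of those near neuron-induced genes.

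**Figure D2:**
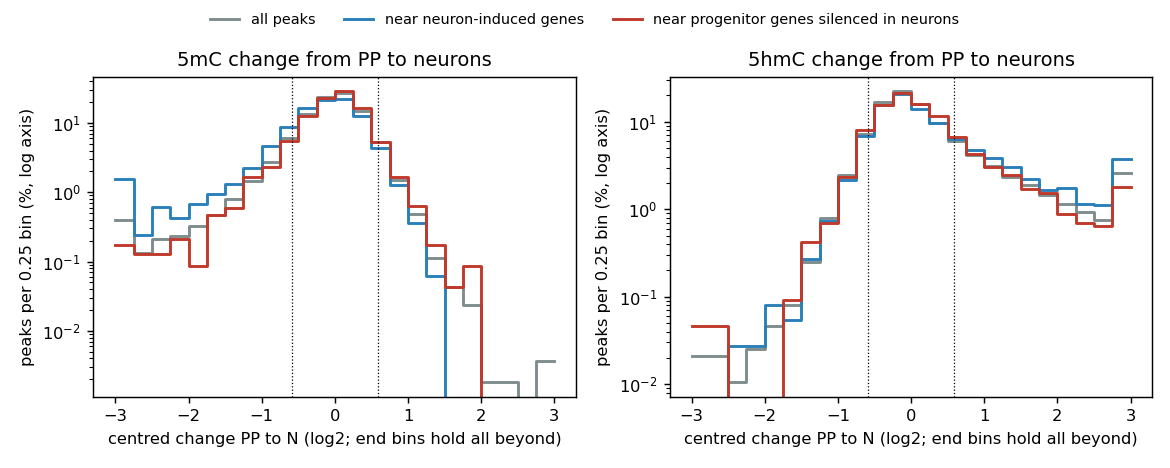
Share of peaks (%, log axis) in bins of 0.25 of the centred log2 change from PP to neurons, for 5mC (left) and 5hmC (right); dotted lines mark 1.5-fold, and the end bins hold all larger changes. The members (red) follow all peaks (grey), while peaks near neuron-induced genes (blue) hold more of the 5mC losses and of the 5hmC gains.

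Counted by gene, 154 of the 530 genes (29.1%) had at least 1 peak that lost 5mC from PP to neurons and 111 (20.9%) had a peak that gained it, against 26.0% and 16.2% of all genes with a 5mC peak. For 5hmC, 203 of 501 genes (40.5%) had a gained peak and 142 (28.3%) a lost peak, against 40.5% and 22.5% of all genes. Member genes had a mean of 4.42 5mC and 4.30 5hmC peaks, and all genes 3.84 and 3.70. Across genes, Spearman's rho between the log2 ratio of the scores in neurons and PP and the gene's median change was -0.07 for 5mC (530 genes) and 0.01 for 5hmC (501 genes). These values are descriptions over genes that share the same libraries.

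Peaks were next divided by how the gene behaved in DP. Where the score in DP was already under 0.5 of that in PP, 17.4% of 660 5hmC peaks were gained from PP to neurons and 8.94% lost. Where it was from 0.5 to 1 of PP, 24.0% of 1194 were gained and 7.71% lost, and where it was at or above PP, 19.2% of 302 were gained and 7.62% lost. For 5mC the losses were 7.63% of 603, 9.90% of 1283 and 9.41% of 457 peaks. Over all peaks 22.1% gained 5hmC, 7.71% lost it and 10.2% lost 5mC.

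At the peaks that gained 5hmC from PP to neurons the level in DP lay in between, with medians of 3.84 in PP, 4.36 in DP and 4.97 in N. On the log2 scale DP had covered a median of 41.3% of the difference, against 39.5% at all gained peaks. At the peaks that lost 5mC the medians were 4.86, 4.53 and 3.69, and DP had covered 25.1%, against 25.4% at all lost peaks. The gain of 5hmC was thus further on in DP than the loss of 5mC, with like values near the genes that are turned off and over the whole set. In the other directions the order was reversed. DP had covered 51.8% at the 5mC gains and 34.6% at the 5hmC losses, against 54.4 and 36.9% over all such peaks. All these peaks were chosen by their change from PP to neurons, and an order of the marks was not tested.

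By position, 8.06% of the member 5mC peaks inside the gene were lost from PP to neurons (10.6% of all such peaks), 9.33% upstream (9.79%) and 13.1% downstream (10.5%). Inside the gene 24.6% of the member 5hmC peaks were gained from PP to neurons (26.7% of all such peaks), downstream 23.1% (21.4%) and upstream 16.0% (18.5%). Beyond 100 kb from the start site 22.7% of 428 member 5hmC peaks were gained, against 17.6% of all peaks at that distance. Within 2 kb of the start site, 15.3% of 98 peaks were gained and 13.3% lost, against 20.9% and 7.63% of all. There, the largest gains were at Lfng, which modifies Notch receptors, with 5hmC of 2.999 in PP, 3.95 in DP and 5.10 in N 1.32 kb upstream of its start, and at Eci1, an enzyme of fatty acid oxidation, with 3.15, 4.23 and 5.03. The largest losses there were at Syt13, a synaptotagmin, with 4.81, 4.49 and 3.30, and at Inppl1, a phosphoinositide phosphatase, with 4.67, 4.50 and 3.54 (Eci1, Syt13 and Inppl1 were chosen after their values were seen). 5mC within 2 kb was lost at 2 and gained at 2 of 79 member peaks, whereas 9.44% of all 5mC peaks at that distance were lost and 5.27% gained. From DP to neurons 8 of the 79 gained 5mC (10.1%) and 2 lost it, against 5.30% and 8.22% of all peaks there. The peaks lost from PP to neurons were those of Tpx2, a spindle assembly factor, with 4.11, 3.89 and 3.21, and of Tmem97, with 4.63, 4.64 and 3.74. The gained peaks were those of Bicc1, with 4.57, 4.75 and 5.11, and of Gyg, with 4.21, 4.07 and 4.75 (Tmem97, Bicc1 and Gyg were chosen after their values were seen).

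Of the 3 lists with the most members, radial glia genes had the highest share of 5mC peaks lost in DP. Of their 101 5mC peaks near 16 genes, 13 were lost from PP to DP (12.9%) and 1 gained (0.990%), against 5.44 and 4.6% of all peaks, with a median change of -0.09, where cell cycle genes lost 9 of 191 (4.71%) and signalling genes 4 of 135 (2.96%). From DP to neurons the median change was 0.16, and over both steps it was 0.00 with 13 lost and 6 gained. The 13 peaks lost in DP belonged to 7 genes. Of these peaks, all chosen for a lower level in DP than in PP, the lowest was inside Ddah1, which degrades an inhibitor of nitric oxide synthase, with 3.96 in PP, 2.14 in DP and 3.34 in N. A peak 19.4 kb upstream of Id4, an inhibitor of bHLH factors, read 3.79, 2.16 and 3.57, and a peak 33.9 kb upstream of Pax6, a transcription factor of radial glia, read 5.70, 4.93 and 5.12. Hmga2, a chromatin protein of young progenitors, read 4.75, 3.84 and 4.38. Without Sox2, the gene of the list with the most peaks, 10 of 77 5mC peaks were lost from PP to DP (13.0%) and 6 of 77 from PP to neurons (7.79%). The peaks of Ddah1, Id4, Pax6 and Hmga2 were chosen after their values were seen, and the list has no test.

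5hmC at the radial glia genes was gained at 26 of 114 peaks from PP to neurons (22.8%) and lost at 10 (8.77%), against 22.1 and 7.71% of all peaks. Without Sox2 it was gained at 15 of 92 (16.3%) and lost at 9. Of the 23 genes, 18 had a called peak of either mark with a level of at least 4. This count grows with the number of peaks per gene, and the like share of all genes is not given here. Tead2, a partner of YAP, had 5hmC of 4.49 in PP, 5.06 in DP and 6.26 in N at a peak 1.58 kb into the gene. Sall1, a zinc finger factor, had 4.04, 5.28 and 5.78 at a peak 94.9 kb downstream of its start. Id1 had 2.06, 3.07 and 4.29, and Hopx, a marker of basal radial glia, had 3.82, 4.34 and 5.00 at a peak 0.713 kb upstream. In the opposite direction, Mfge8, a secreted glycoprotein, had 4.92, 3.99 and 3.45, and Nes, the intermediate filament nestin, had 4.90, 4.64 and 4.07. Slc1a3, a glutamate transporter of radial glia, had a gained peak inside the gene with 2.85, 2.83 and 4.54, in which PP and DP were alike and neurons higher. For 5mC, Vim, another intermediate filament, had a gained peak inside the gene with 4.58, 4.32 and 5.48, and Hes1, a Notch target, a lost peak upstream with 4.44, 4.55 and 3.49.

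Cell cycle genes had 191 5mC peaks near 49 genes and 121 5hmC peaks near 34. From PP to neurons 20 of the 5mC peaks were lost (10.5%) and 15 gained (7.85%), and 28 of the 5hmC peaks were gained (23.1%) and 7 lost (5.79%), with median changes of 0.05 and 0.04. Of all peaks, 10.2% lost and 5% gained 5mC, and 22.1% gained and 7.71% lost 5hmC. Called peaks with a level of at least 4 stood near 28 of the 52 member genes, again without the like share of all genes. E2f7, an atypical E2F that represses cell cycle genes, had the largest 5hmC gain of the list, with 1.13 in PP, 3.14 in DP and 5.02 in N at a peak 18.8 kb upstream. Ccnb1, a mitotic cyclin, followed with 1.14, 3.50 and 4.24 at a peak 16.7 kb upstream, within Slc30a5. E2f8 had 2.23, 3.52 and 4.19 at a peak 132 kb upstream, within Nav2. Mcm10, a replication factor, had 2.52, 3.36 and 4.34 at 2.90 kb upstream. Losses of 5hmC were found near Rrm2, a subunit of ribonucleotide reductase, with 4.57, 4.49 and 3.38, and Aurkb, a mitotic kinase, with 4.54, 3.58 and 3.45. A 5mC peak 33.4 kb upstream of Rrm1, the other subunit of the reductase, lies within Stim1 and was gained with 2.85, 4.46 and 4.17. 5mC was also gained inside Mcm5, a subunit of the replicative helicase, with 3.80, 4.24 and 4.76, and inside Brca1, a DNA repair gene, with 4.13, 4.22 and 4.85. It was lost upstream of Cenpe, a kinetochore motor, with 5.13, 4.55 and 3.79, and of Cdk1, the mitotic kinase, with 4.90, 4.71 and 3.59.

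Genes of Notch, Wnt, FGF, BMP, Hedgehog, YAP and EGF family signalling had 170 5hmC peaks near 22 genes, of which 47 were gained from PP to neurons (27.6%) and 12 lost (7.06%), against 22.1 and 7.71% of all peaks, with a median change of 0.14. Without Tcf7l2, its gene with the most peaks, 35 of 140 were gained (25%). Of their 135 5mC peaks 15 were lost (11.1%) and 7 gained (5.19%), against 10.2 and 5% of all peaks. A called peak with a level of at least 4 stood near 20 of the 23 member genes, again without the like share of all genes. Of the Notch receptors, Notch3 had the largest gain of 5hmC of all member peaks with a level of at least 4. This peak inside the gene was at -0.05 in PP, the lowest 5hmC level in the table, at 2.97 in DP and at 5.00 in neurons. Notch1 and Notch2 had lost peaks upstream, with 5hmC of 4.30, 4.58 and 3.62 and of 5.88, 5.37 and 4.73. Of the Wnt pathway, Tcf7l2, a transcription factor, had 2.20, 3.43 and 5.29 at a peak 235 kb downstream of its start. The secreted inhibitor Sfrp1 had 3.21, 4.29 and 4.32, whereas the Wnt receptors Fzd8 and Fzd9 had lost peaks with 4.19, 4.14 and 2.84 and with 5.53, 5.07 and 4.47. Of the FGF pathway, the receptor Fgfr3 had 3.01, 3.56 and 4.90 and the target Etv5 3.22, 4.20 and 4.97. Of the Hedgehog pathway, the receptor component Gas1 had 2.80, 3.46 and 4.98 at a peak 106 kb downstream of its start. The transducer Smo had 3.98, 4.27 and 4.98, and the transcription factor Gli2 3.63, 4.91 and 4.97. The receptor Erbb2 was lost and read 4.98, 2.97 and 3.89, lowest in DP. Lrig1, which restrains EGF family receptors, had 1.14, 2.19 and 5.05 inside the gene.

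Of the genes that set or remove cytosine methylation only Uhrf1, which brings the maintenance methyltransferase to replicated DNA, was a member (1 of 15 with a peak). It had 3 5mC peaks, of which 1 was gained from PP to neurons with 3.92, 4.15 and 4.38.

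Of the genes with the most member peaks, 9 were described: Dct, Tcf7l2, Tox3, Sox2, Bmper, Egln3, Mki67, Dock1 and E2f7. They held 192 5mC and 219 5hmC peaks, with the farthest 553 kb from the start site. Of their 5hmC peaks 71 were gained from PP to neurons (32.4%) and 8 lost (3.65%), whereas of the 1937 peaks near all other genes of the set 20.03% were gained and 8.57% lost. Of their 5mC peaks 32 were lost (16.7%) and 10 gained (5.21%), and near the other genes 8.55% were lost and 5.95% gained. Of all peaks, 22.1% gained and 7.71% lost 5hmC, and 10.2% lost and 5% gained 5mC. Beyond 100 kb from the start site, 17.6% of all 5hmC peaks were gained and 12.4% of all 5mC peaks lost. The 9 genes were taken by their number of peaks and not by the changes. Their difference from the other genes was not tested, and distance was not matched. Sox2 and E2f7 had gains at 11 of 22 (50%) and 8 of 16 (50%) of their 5hmC peaks. Tcf7l2 had gains at 12 of 30 (40.0%), and Mki67, the proliferation marker, at 6 of 19 (31.6%). Dct, an enzyme of melanin synthesis, had 9 gains and no loss among 29 5hmC peaks, with a median change of 0.34. Tox3, an HMG-box factor, had 6 gains and 2 losses among 33, with a median of 0.05. Bmper, a secreted BMP modulator, had 6 gains among 28 with a median of 0.03.

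**Figure D3:**
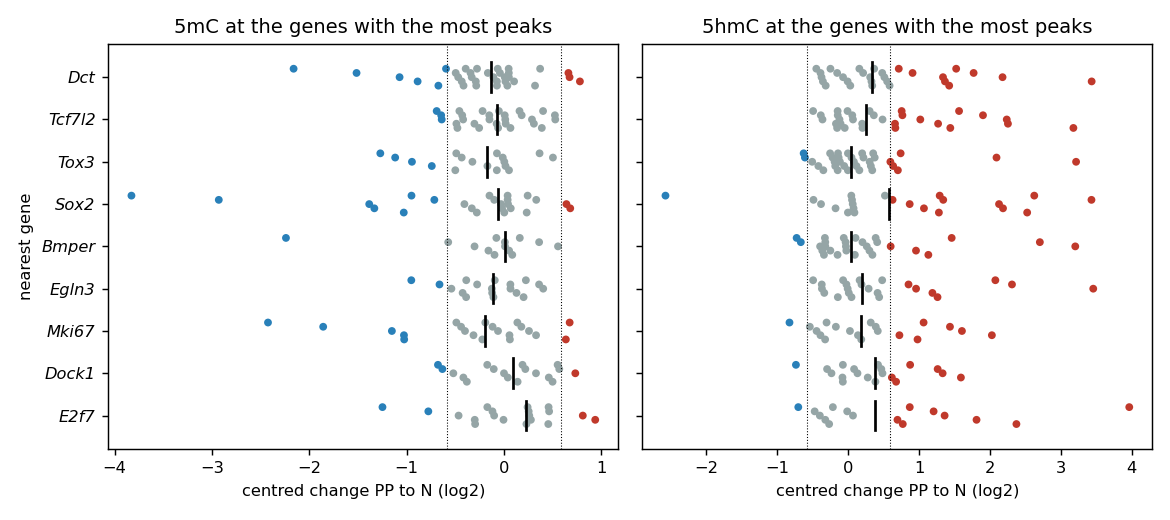
Centred log2 change from PP to neurons of each 5mC (left) and 5hmC (right) peak of 9 of the genes with the most member peaks; blue points are lost, red points gained, grey points neither, black bars are medians and dotted lines 1.5-fold. For 5hmC the called points lie mostly on the right, with 71 gained and 8 lost of 219.

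Sox2, which keeps neural progenitors undifferentiated, had a score of 16755 in PP, 10576 in DP and 1652 in N. Its 24 5mC and 22 5hmC peaks all lay downstream, from 41.0 to 323 kb from the start. Between PP and neurons 7 of the 5mC peaks were lost and 2 gained, and 11 of the 5hmC peaks were gained and 1 lost, with median changes of -0.06 and 0.57. Of all peaks, 10.2% lost and 5% gained 5mC, and 22.1% gained and 7.71% lost 5hmC. The 5mC peak 127 kb downstream (chr3:34776807-34776935, in the uncharacterized gene Gm38509) read 4.47 in PP, 3.80 in DP and 0.47 in N. The 5hmC peak that overlaps it read 1.65, 4.00 and 4.19, so 5hmC was high in DP while 5mC had not yet fallen to its level in neurons. At 144 kb 5hmC read 1.34, 2.35 and 4.69, and farther downstream 2.16, 3.32 and 4.60. The lost 5hmC peak, at 186 kb (chr3:34836306-34836535), read 4.46, 3.65 and 1.80 and lies within 5 kb of 5 peaks that gained 5hmC. The highest 5mC peak of the locus, at 55.6 kb, read 7.27, 7.36 and 7.14, and the one with the third-highest level in PP was lost and read 6.10, 6.02 and 4.98.

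**Figure D4:**
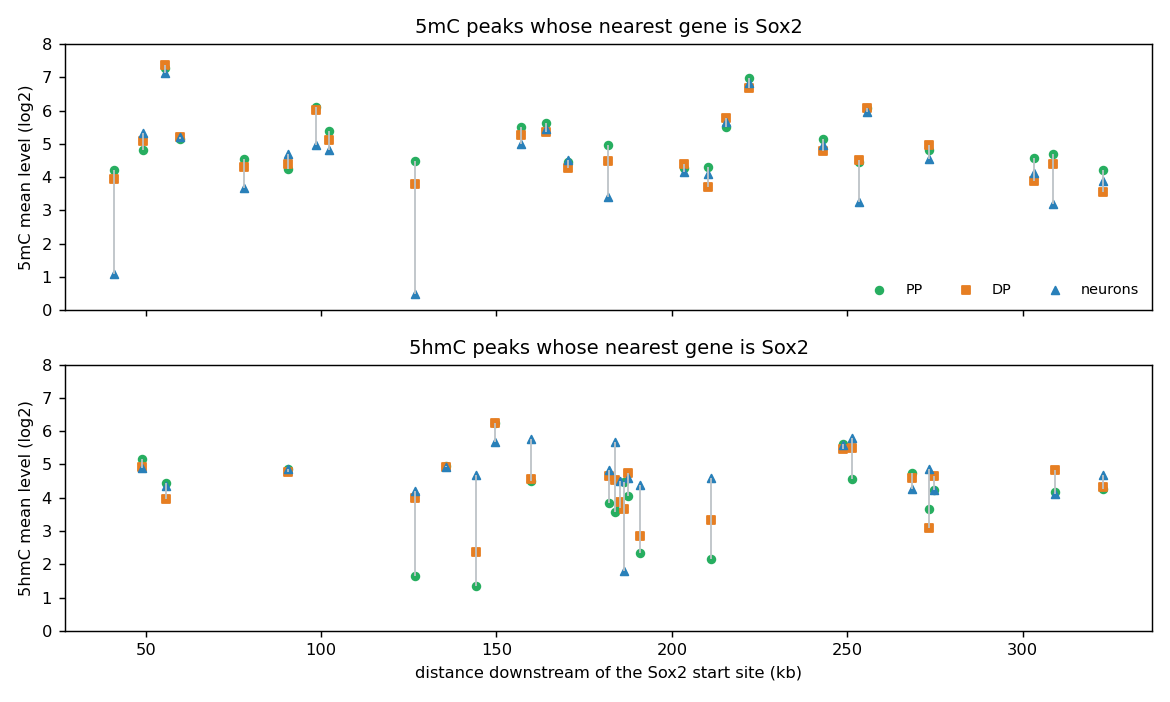
Mean log2 level of 5mC (top) and 5hmC (bottom) in PP (circles), DP (squares) and neurons (triangles) at each peak whose nearest gene is Sox2, by distance downstream of its start site in kb; grey lines join the lowest and highest level of a peak. At 127 kb the neuronal 5mC level of 0.47 lies far below PP and DP, and the 5hmC level of PP of 1.65 lies far below DP and neurons.

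The largest single changes had both directions. Of the 5mC losses from PP to neurons, the largest were inside Slc25a13, a mitochondrial carrier of aspartate and glutamate, at Sox2 as above, and upstream of Agtrap. Slc25a13 (chr6:6195087-6195228) read 4.89 in PP, 3.52 in DP and 0.11 in N, the lowest neuronal 5mC level in the table. The Agtrap peak, within the neighbouring gene Draxin, read 6.03, 6.01 and 2.96. Of the 5mC gains, Ppap2b, a phosphatase of lipid phosphates, read 2.72, 4.03 and 4.34, Nek7, a mitotic kinase, read 3.12, 3.96 and 4.73, and Fat1, a large cadherin, read 3.22, 4.44 and 4.59. Of the 5hmC losses, Crb2, an apical polarity protein, read 5.58, 5.16 and 2.35 at a peak 188 kb downstream that lies within Dennd1a, and Sox2 stood second as above. Plod2, a collagen-modifying enzyme, read 4.47, 3.85 and 2.69 at an intergenic peak 696 kb downstream of its start. Of the 5hmC gains, Notch3 was followed by Svil, an actin-binding protein, with 1.83 in DP and 4.81 in neurons, and by Rnaseh2b, a subunit of a ribonuclease, with 2.42 and 4.66. All 3 were in PP at the lowest 5hmC level of the table, which 4 member peaks and 105 of all peaks shared.

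Peaks of the marks overlapped by at least 1 bp at 314 places near 182 genes, which is 13.4% of the member 5mC and 14.6% of the member 5hmC peaks. Among all 55085 5mC and 47478 5hmC peaks there were 6727 such overlaps. From PP to neurons, 60 of the 314 lost 5mC (19.1%) and 120 gained 5hmC (38.2%), against 24.3 and 42.9% of all 6727 shared peaks. Both happened at 45 (14.3%), against 18.8%. From PP to DP both happened at 8 (2.55%), against 3.2%, and from DP to neurons at 31 (9.87%), against 12.5%. The reverse, a gain of 5mC with a loss of 5hmC, was seen at 2 from PP to neurons, and at 15 of all 6727 shared peaks. Of the shared peaks that lost 5mC, 75.0% gained 5hmC, and of those that gained 5hmC, 37.5% lost 5mC, where all shared peaks had 77.7% and 43.9%. Spearman's rho between the changes of both marks was -0.52 over the 314 member pairs and -0.51 over all, as a description over peaks from the same libraries. Near neuron-induced genes 134 of 502 shared peaks (26.7%) lost 5mC and gained 5hmC.

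At the 45 places, which lay near 37 genes, 5mC had a median of 5.03 in PP, 4.85 in DP and 3.58 in N, and 5hmC of 3.68, 4.44 and 5.30. In DP, 25 of them had already gained 5hmC by 1.5-fold and 9 had already lost 5mC. The 45 places were chosen by their calls from PP to neurons, and the like counts over all such shared peaks are not given here. After Sox2, the largest differences between the marks were at E2f7 and Slc14a1. The shared E2f7 peak (chr10:110726621-110726758) had 5mC of 4.42, 4.34 and 2.998 and 5hmC of 1.13, 3.14 and 5.02. Slc14a1, a urea transporter, had 5mC of 5.14, 5.07 and 4.62, which is no call, and 5hmC of 0.40, 3.03 and 4.91. Lrig1 was the gene with the most such places, at 3, and Dct, E2f7, Rcn1, Sox2, Tcf7l2 and Tox3 had 2 each. At Slc25a13 the loss of 5mC was not joined by 5hmC, which read 4.83, 4.697 and 4.75 at the overlapping peak. At the other end was Ppap2b, where 5mC was gained while 5hmC read 5.94, 5.84 and 5.82, and one of the reverse places was at Myo10, inside the gene, with 5mC of 5.03, 5.67 and 5.74 and 5hmC of 4.72, 4.39 and 3.83 (Lrig1, Rcn1 and the Myo10 place were chosen after their values were seen).

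**Figure D5:**
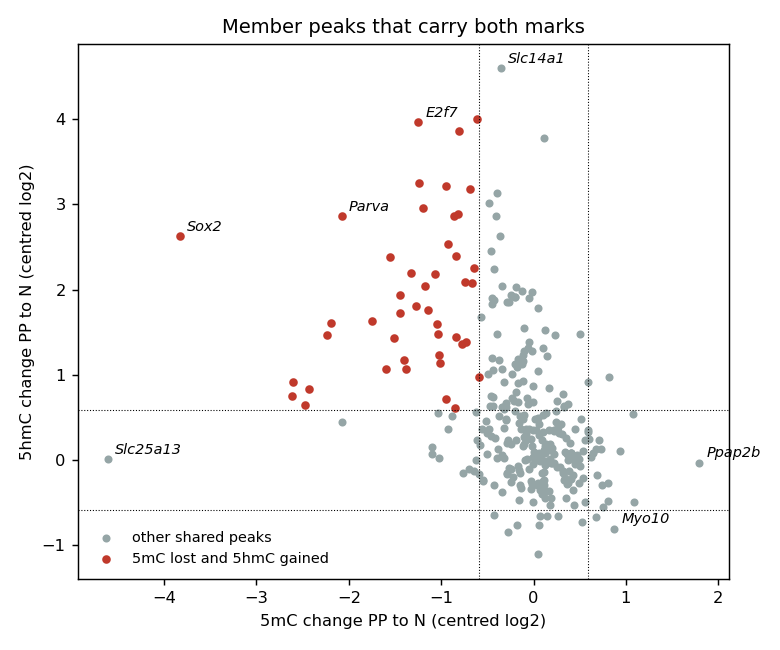
Centred log2 change of 5mC (x axis) and 5hmC (y axis) from PP to neurons at the 314 member peaks that carry both marks; red points lost 5mC and gained 5hmC by at least 1.5-fold, and dotted lines mark 1.5-fold. The 45 red points fill the upper left, with Sox2 at its far left, E2f7 near its top and Slc25a13 outside it at no change of 5hmC.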

How the data were processed

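The values are the deposited peak tables of (h)MeDIP of PP, DP and neurons. Per the submitters' processing notes and the study's methods, reads were aligned to mm10 with BWA 0.7.8-r455, peaks called with SICER 1.1, levels computed in DiffBind with TMM and peaks annotated with HOMER 4.7. The level columns deposited by the authors are log2 of the mean normalized level per cell type over 3 biological replicates, already averaged; counts, values per replicate and depth are not given in them. The expression columns deposited by the authors hold a score per cell type from an earlier RNA-seq study, on a scale the tables do not name. The columns of the authors' own comparisons (fold changes and p-values of marks and expression) were not used.

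All peaks entered the centring and the shares over all peaks. Where a symbol named several expression rows, as for Qk, the rule was applied row by row. Genes were named by a rule: the 10 genes with the most peaks, 1 of which is not reported here, the 3 largest changes per mark and direction with a level of at least 4, called genes of the fixed lists, the 3 shared pairs with the largest difference, and the genes next to each threshold. Members and lists were chosen with earlier results of these data known. Alternatives were a stricter fold, no centring, a level minimum, 1 value per gene, stricter gene and distance rules and other overlaps. The steps were tested on simulated data. No genome was used here, so CpG content and motifs were not computed over peaks, and sequences came from RefSeq promoter windows. Python 3.11.15, pandas 2.3.3, numpy 2.4.6, scipy 1.17.1 and matplotlib 3.10.9 were used.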

Additional observations from a re-analysis of the deposited data

How the results depend on the processing

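No paired analysis was possible because the tables hold 1 mean level per cell type and no values of numbered replicates, and no library could be left out for the same reason. Values below are for PP to DP, DP to N and PP to N in this order. With a minimum of 2-fold, 5mC was lost at 0.683, 2.73 and 3.46% and gained at 0.598, 0.726 and 0.939% of the member peaks, and 5hmC lost at 0.881, 1.21 and 1.30% and gained at 3.76, 6.31 and 12.8%. With 1 median per gene, 5mC was lost at 2.08, 1.89 and 2.45% and gained at 1.70, 2.64 and 3.02% of genes, and 5hmC lost at 2.40, 3.99 and 4.19% and gained at 3.99, 6.99 and 10.98%. With a mean level of at least 4, 5mC was lost at 3.43, 6.45 and 7.27% and gained from DP to N at 4.30%, and 5hmC was gained at 7.04, 9.76 and 16.1%, with medians of -0.0042 from DP to N and -0.013 from PP to N. Without centring, the 5mC medians were -0.16 from DP to N and -0.15 from PP to N, with 14.47 and 15.3% lost and 2.01 and 2.52% gained, and the 5hmC medians were -0.0034 and -0.067, with 11.5% lost and 19.3% gained from PP to N. Inside the gene or within 20 kb, 5mC was lost from DP to N at 6.94%. With mean levels of at least 4 in both marks, 8.98% of the shared peaks lost 5mC and gained 5hmC from PP to N. The other values of these settings, and those with an expression of 1000 or more in PP, a ratio of at least 10, without genes of other cell types, on autosomes only, with each peak once, without the gene with the most peaks, or with an overlap of 50% of the shorter peak, stayed within the 95% interval of the value reported.

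From PP to neurons, the members stood beside all peaks and neuron-induced genes as follows under these settings. By gene, 5hmC was gained at 10.98% of member genes, 14.52% of all genes and 18.7% of neuron-induced genes, and 5mC lost at 2.45, 4.08 and 6.78%. 5mC was gained by gene at 3.02, 2.27 and 1.26%. With a mean level of at least 4, 5hmC was gained at 16.1, 16.3 and 20.5% and 5mC lost at 7.27, 7.83 and 13.2%. 5mC was gained at 5.44, 4.77 and 3.85% of these peaks. The lists without their gene with the most peaks, a setting chosen after seeing the data, are given beside the lists. The nearest gene need not be the gene a peak acts on. Replicate spread, depth and input signal are not given with the levels, so small differences between the sets cannot be judged. A level at the floor of a table limits the change of its peak.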

Other observations

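Imprinted genes and genes of the extracellular matrix were also among the members; both groups were chosen after their values were seen. H19, Igf2, Grb10, Plagl1 and Peg12, imprinted genes of growth control, had 8 5mC and 11 5hmC peaks. From PP to neurons 1 of the 5mC peaks was lost and none gained, and 3 of the 5hmC peaks were gained and none lost; over all peaks 10.2% lost and 5% gained 5mC, and 22.1% gained and 7.71% lost 5hmC. The lost peak, 27.9 kb upstream of H19, read 4.51 in PP, 4.79 in DP and 3.65 in neurons for 5mC. A 5hmC peak 36.6 kb upstream of H19 was among the highest of these levels, with 7.41, 7.15 and 7.09. Inside Grb10, a 5hmC peak 44.2 kb from the start read 7.37, 7.05 and 7.34, and another at 48.7 kb was gained with 4.00, 4.49 and 4.74. The Plagl1 peak 0.782 kb upstream of its start had 5mC of 6.34, 6.57 and 6.43.

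Collagens, laminins and nidogens, the components of the basement membrane and matrix, were members with 14 genes, of which 13 had 60 5mC peaks and 11 had 46 5hmC peaks. From PP to neurons 2 of the 5mC peaks were lost (3.33%) and 2 gained (3.33%), against 10.2 and 5% of all 5mC peaks. Of the 5hmC peaks 7 were gained (15.2%) and 4 lost (8.70%), against 22.1 and 7.71% of all 5hmC peaks. From DP to neurons 7 of the 46 5hmC peaks were lost (15.2%) and 5 gained (10.9%), against 7.07 and 16.5% of all peaks. The difference of these counts from those of the other members was not tested.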
